A study of Mus musculus with 8 samples.

Results

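The genes described here are the classical cadherins and non-clustered protocadherins of the mouse, chosen by name alone: all symbols in the count tables made of Cdh and a number, or of Pcdh and a number with or without an x. The rule found 35 of 32285 genes, 23 of them Cdh and 12 Pcdh genes. The rule is wider than the classical family in the strict sense, since it also takes in Cdh13, which is held in the membrane by a lipid anchor, and Cdh16, Cdh17, Cdh23 and Pcdh15, which lack a classical catenin-binding tail. Their levels were measured by single-nucleus RNA sequencing of the cerebral cortex of 8 C57BL/6J mice at postnatal day (P) 25. There were 4 wild-type (WT) and 4 Chd8 het (heterozygous, here Chd8het) animals, each genotype with 2 males and 2 females, 1 library per animal, and no other allele or agent is named in the labels. Chd8 encodes a chromatin remodeller, and the allele itself is not described in the sources used here. Animals were paired by litter and sex. Tissue was flash-frozen after removal of medial cortex, and libraries were made with v3 chemistry of the 10x 3' kit. In each group of sex and genotype, replicate 1 was single-indexed and replicate 2 dual-indexed.

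Cadherins are calcium-dependent adhesion proteins of the cell surface. The extracellular repeats of a classical cadherin bind the same or a closely related cadherin on the next cell, and its cytoplasmic tail binds the catenins, which tie it to actin. Type I members (Cdh1, Cdh2, Cdh3, Cdh4 and Cdh15) and type II members (Cdh5 to Cdh12, Cdh18 to Cdh20, Cdh22 and Cdh24) differ in the residues of the binding interface, and non-clustered protocadherins have their own tails and, in general, weaker adhesion. In the cortex these genes are known for combinations that differ between layers, areas and interneuron classes, which has been called an adhesion code.

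The files held 97772 barcodes, of which 77890 nuclei were kept, 7503 to 10988 per library. Libraries held 69503598 to 98132783 unique molecular identifiers (UMIs), and kept nuclei had median UMI counts of 4970 to 7467. Nuclei were clustered without any gene of the cadherin superfamily, and clusters were named from marker genes, which gave 20 cell types with 60772 nuclei (78.0%), 21 to 1774 per type and library. A name means resemblance to the class (L6b stands for L6b-like, and so on). Of the excitatory types, IT neurons project within the telencephalon, ET neurons to subcortical targets outside it and CT neurons to the thalamus, while NP neurons are near-projecting. Pvalb, Sst, Vip and Lamp5 name interneuron classes. OPC are oligodendrocyte precursors, committed precursors are the stage between these and oligodendrocytes, mural cells are pericytes and vascular muscle, and VLMC are the vascular and leptomeningeal fibroblasts. Between 27 and 63 barcodes were shared by any 2 libraries, at most 0.474% of the smaller one. Chd8 itself stood at 79.8 ± 2.68 CPM in WT and 79.3 ± 5.35 in Chd8het libraries (CPM, a gene's UMI count scaled to the total of its library and cell type, here after TMM scaling; SD, n = 4 and 4), a log2 difference of -0.01. Because the allele is not described, this level does not check the genotype labels.

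Marker genes of excitatory neurons were also counted in the nuclei of other types, and whether this is carried-over RNA or the types' own expression was not tested. In microglia the 8 excitatory marker genes stood at a median of 71.4% of their level in excitatory types (range 29.3% to 208%), in mural cells at 85.1%, in endothelial cells at 74.7%, in VLMC at 48.6%, in astrocytes at 43.8%, in OPC at 37.8%, in oligodendrocytes at 32.9% and in committed precursors at 31.4%. Members with at least 20 CPM were therefore read against this: those above the highest marker percentage were 11 of 21 in OPC, 11 of 20 in committed precursors, 7 of 19 in astrocytes, 6 of 16 in oligodendrocytes, 5 of 23 in mural cells, 3 of 21 in endothelial cells, 2 of 19 in VLMC and 1 of 20 in microglia. Only excitatory markers set this limit, and the share of all genes above it is not given. Cdh19 was counted in mural cells at 31.9 CPM and in VLMC at 26.0, against 847 in oligodendrocytes. Oligodendrocyte markers stood at a median of 3.91% of their own level in mural cells and 2.61% in VLMC. Carried-over RNA from glia was not tested.

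The libraries also stood apart by index type. In an edgeR quasi-likelihood model with sex, index type and genotype, chosen after the levels had been seen, 34.1% of the 21225 genes tested in all kept nuclei differed between single- and dual-indexed libraries (Benjamini-Hochberg adjusted p under 0.05), and 11 of 34 members did. Over the 20 cell types the share was 13.9% of all tests and 91 of 431 tests of members (21.1%). Cdh13 and Cdh4 led these counts: each differed in 15 cell types, out of 20 and 19 tested, and was higher in dual-indexed libraries in all 15. Genotype and sex were balanced over index type, so the comparisons below hold both kinds of library on each side. What else separates these libraries cannot be told apart from the index type.

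In L2/3 IT neurons, Cdh13 stood at 69.0, 117, 107 and 87.9 CPM (after TMM) in the 4 single-indexed libraries (WT male 1, WT female 1, Chd8het male 1 and Chd8het female 1) and at 230, 247, 275 and 219.9 in the 4 dual-indexed ones, in the same order. The kinds of library did not overlap (log2 difference, single minus dual, -1.36, SE 0.16, edgeR adjusted p 0.000769). Cdh4, the R-cadherin gene, stood at 45.8, 80.0, 49.9 and 56.2 CPM against 187, 193, 114 and 126 in the same neurons (-1.40, SE 0.14, adjusted p 0.000480). Sst interneurons did not show this for Cdh13, with 1500 ± 55.3 CPM in single- and 1471 ± 191 in dual-indexed libraries (log2 0.03, SE 0.08, adjusted p 0.813). Levels of these genes pooled over the libraries have an SD that is widened by the index type, and the order of cell types was therefore also read within each kind of library.

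Of the 35 genes, 27 reached 20 CPM (mean of 8 libraries) in at least 1 cell type. The other 8 were Cdh1, Cdh3, Cdh15, Cdh16, Cdh17, Cdh26, Pcdh12 and Pcdh20. Of these, Cdh1 (E-cadherin) was at 14.4 and Cdh3 (P-cadherin) at 12.7 CPM in VLMC, Pcdh12 at 12.3 and Cdh26 at 6.39 CPM in endothelial cells, and Pcdh20 at 14.5 CPM in Vip interneurons and 14.4 in OPC. Cdh15, Cdh16 and Cdh17, known from muscle, kidney and intestine, stayed under 1 CPM in all 20 types. For 12 of the 27 (44.4%) the lowest library of the highest cell type lay above the highest library of the next, against 21.2% of all 11737 genes with that level. Among the named types, these 12 were Cdh12, Cdh18, Cdh20, Cdh22, Cdh23, Cdh24, Pcdh7, Pcdh8, Pcdh9, Pcdh15, Pcdh17 and Pcdh18. All 12 were also counted among the 18 genes apart in the single-indexed libraries alone (34.3% of all genes) and among the 15 in the dual-indexed ones (32.5%). With 4 libraries in place of 8 the ranges are narrower by construction.

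The promoter sequences below belong to the members that were apart from the next type and had at least 100 CPM there, because these carry the cell type pattern. There were 9 such members, and 5 of them had a RefSeq promoter entry with no annotated exon in the window. Each line gives the 200 bases before the start site in the RefSeq table (build GRCm38.p6), 5′ to 3′ on the gene's strand. Capitals mark matches to the letters searched, which were AGGAAG (the core of ETS factor sites), ACAAAG (a SOX site) and TATAAA (the TATA box), on both strands.
Cdh20, chr1:104768320-104768519, strand plus: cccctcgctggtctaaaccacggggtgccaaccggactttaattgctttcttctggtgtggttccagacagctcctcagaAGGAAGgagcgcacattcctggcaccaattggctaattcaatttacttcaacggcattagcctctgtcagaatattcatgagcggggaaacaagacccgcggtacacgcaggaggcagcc
Cdh23, chr10:60696491-60696690, strand minus: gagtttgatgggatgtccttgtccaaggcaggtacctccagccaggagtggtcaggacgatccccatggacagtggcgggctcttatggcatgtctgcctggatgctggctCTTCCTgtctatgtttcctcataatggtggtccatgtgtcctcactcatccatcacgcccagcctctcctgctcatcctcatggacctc
Pcdh15, chr10:73821667-73821866, strand plus: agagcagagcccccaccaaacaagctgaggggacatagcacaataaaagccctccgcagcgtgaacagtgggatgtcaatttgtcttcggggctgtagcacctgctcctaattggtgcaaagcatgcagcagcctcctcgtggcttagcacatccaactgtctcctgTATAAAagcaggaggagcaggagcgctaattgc
Pcdh17, chr14:84443363-84443562, strand plus: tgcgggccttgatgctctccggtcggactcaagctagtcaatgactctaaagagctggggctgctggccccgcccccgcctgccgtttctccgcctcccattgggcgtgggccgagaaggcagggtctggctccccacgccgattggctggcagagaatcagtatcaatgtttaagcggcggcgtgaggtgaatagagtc
Pcdh9, chr14:93890680-93890879, strand minus: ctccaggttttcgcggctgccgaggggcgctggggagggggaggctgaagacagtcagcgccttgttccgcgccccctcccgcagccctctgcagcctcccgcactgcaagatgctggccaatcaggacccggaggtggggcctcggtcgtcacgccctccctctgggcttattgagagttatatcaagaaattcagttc

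Cdh20 and Cdh23 each hold 1 match to AGGAAG, as printed for Cdh20 and on the strand opposite to the printed one for Cdh23 (CTTCCT), Pcdh15 holds 1 TATAAA, and Pcdh17 and Pcdh9 hold none of the 3 in this window. The GC content of the 5 windows was 53%, 56%, 53.5%, 62% and 64% in the order given. Over the same 200 bases of all 32851 promoters in the table, AGGAAG was found in 24.7%, ACAAAG in 13.3% and TATAAA in 9.96%, and among the 22 members with an entry in 7, 4 and 2. The Pcdh15 entry starts within the annotated gene body, at an internal start. These are matches of letters, and binding was not measured here.

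**Figure D1:**
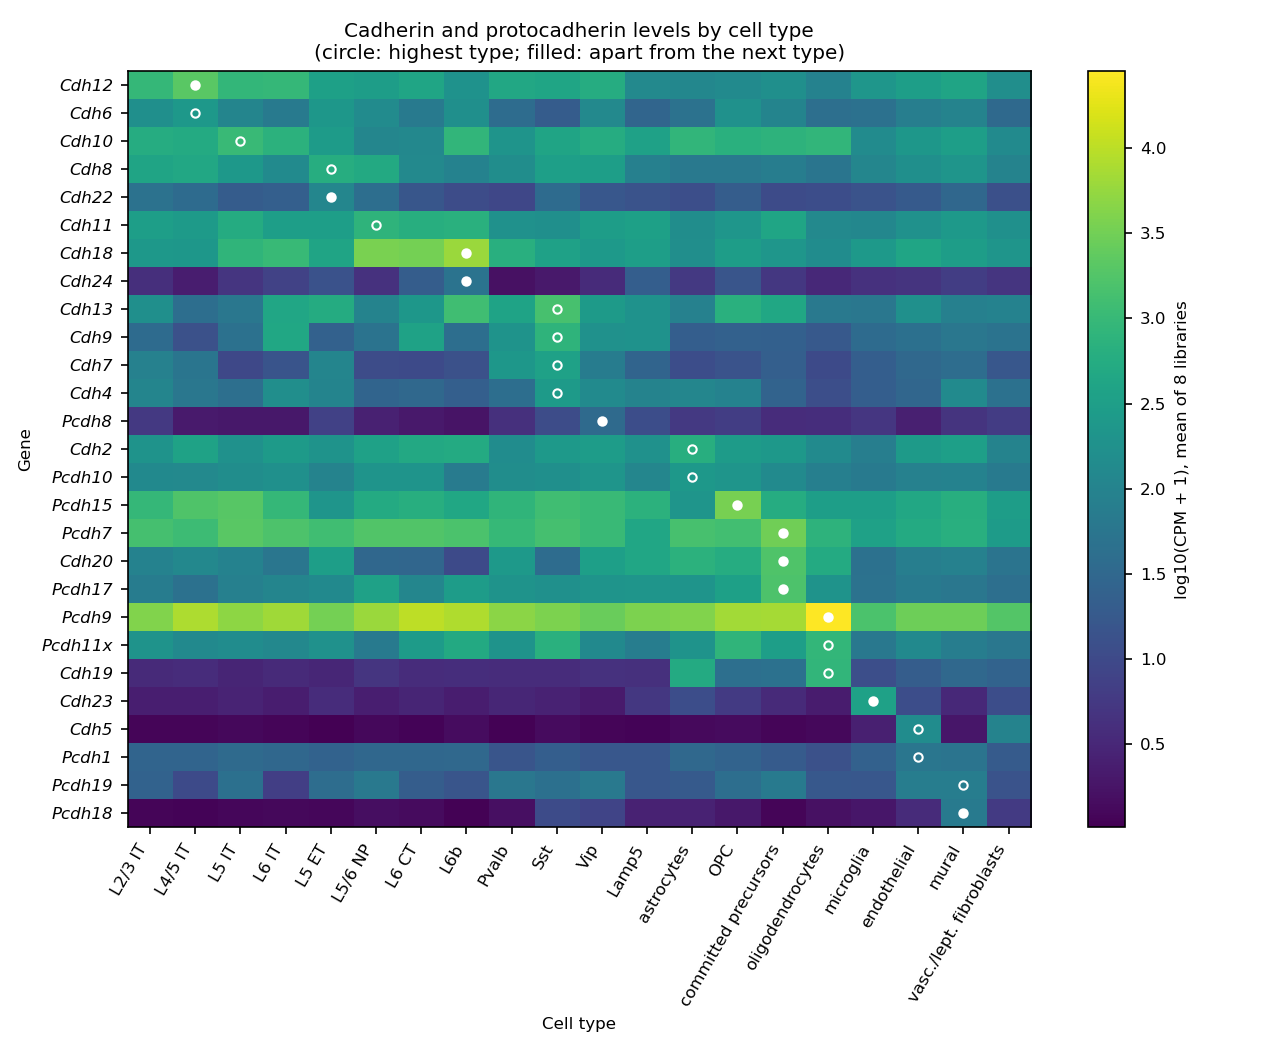
Mean level of each of the 27 genes with at least 20 CPM in 1 or more types (rows) in the 20 cell types (columns), as log10(CPM + 1) over 8 libraries. A circle marks a gene's highest type and a filled circle one whose lowest library lies above the highest library of the next type, which holds for 12 genes.

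Among upper-layer excitatory types, Cdh12 marked L4/5 IT neurons and Cdh6 was shared. Cdh12, a type II cadherin, was at 1647, 2299, 1994 and 2322 CPM in the WT libraries of L4/5 IT neurons (males 1 and 2, then females 1 and 2) and at 1773, 2023, 1944 and 2197 for Chd8het in that order. Its mean of 2025 ± 241 CPM (SD, n = 8) lay above those of L6 IT (912 ± 83.8), L2/3 IT (910 ± 71.4) and L5 IT neurons (881 ± 82.1), 3 types that overlapped each other. For Cdh12 in L4/5 IT neurons, each dual-indexed library was above each single-indexed one. Cdh6 was at 240 ± 50.5 CPM in L4/5 IT and 233 ± 26.6 in L5 ET neurons, which did not differ beyond their spread. L4/5 IT came first for Cdh6 in the single-indexed libraries (271 against 253 CPM) and L5 ET in the dual-indexed ones (212 against 209).

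In layer 5, IT, ET and NP neurons were the highest types of different members. Cdh10 was highest in L5 IT neurons (1044 ± 125 CPM), with L6b (859 ± 109), oligodendrocytes (848 ± 103) and astrocytes (843 ± 59.8) next and overlapping. Cdh8, a type II cadherin studied in layer-specific cortical wiring, was highest in L5 ET neurons (608 ± 71.9 CPM), with L5/6 NP (518 ± 60.3) and L4/5 IT neurons (472 ± 28.1) next. Cdh11 was highest in L5/6 NP neurons at 781 ± 59.9 CPM and overlapped L6b (674 ± 71.8) and L6 CT neurons (610 ± 81.9). Among the named types, L5 ET neurons came first for Cdh8 in 8 of 8 libraries, and L5 IT neurons for Cdh10 and L5/6 NP neurons for Cdh11 in 7 of 8. Of the unnamed clusters, 4 were measured, and 3 of them had Cdh8 at 671 to 926 CPM. Cdh22 stood apart in L5 ET neurons, at 97.3, 145, 85.2 and 115 CPM in WT and 100.4, 154, 92.9 and 103 in Chd8het libraries. The next type, L2/3 IT, had 47.0 CPM, and with nuclei named by their own marker score Cdh22 no longer stood apart. Within L5 ET neurons each dual-indexed library was above each single-indexed one for Cdh22 (130 ± 24.7 against 94.7 ± 8.05 CPM after TMM, log2 single minus dual -0.44, SE 0.09, adjusted p 0.00260).

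The deepest excitatory type, L6b, was the highest type of Cdh18 and Cdh24, and both stood apart from the next type there, but not when each nucleus was named by its own marker score. Cdh18, another type II cadherin, reached 6867, 5672, 6034 and 5482 CPM in the WT libraries of L6b neurons and 5978, 5736, 6181 and 5592 in the Chd8het libraries. Its mean of 5943 ± 443 CPM was followed by L5/6 NP (3651 ± 534) and L6 CT neurons (3305 ± 363) and then L6 IT neurons (1006 ± 106), so 3 deep non-IT types held the highest levels. For Cdh18 in L6b neurons, each single-indexed library was above each dual-indexed one. Cdh24 was at 49.5 ± 15.5 CPM in L6b neurons and 21.2 ± 5.29 and 20.1 ± 2.20 in Lamp5 interneurons and L6 CT neurons. L6b neurons were also second for Cdh10, Cdh11, Cdh13 and Cdh2.

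Sst interneurons were the highest type of Cdh13, Cdh9, Cdh7 and Cdh4. Cdh13 (T-cadherin), the member without a transmembrane domain, was at 1451, 1676, 1463 and 1242 CPM in the WT libraries of Sst interneurons and 1598, 1441, 1519 and 1331 in Chd8het. L6b neurons had 1021, 1737, 1140 and 1270 CPM in WT and 983, 1148, 1059 and 1419 in Chd8het libraries. Over all 8 libraries these types overlapped. In the single-indexed libraries they did not (1507 ± 67.0 against 1051 ± 67.2 CPM), and in the dual-indexed libraries they did (1423 ± 187 against 1394 ± 254). The lowest type was L4/5 IT, with 39.7 CPM.

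Cdh9, a type II cadherin known from selective synapse formation, was at 708, 677, 969 and 832 CPM in the WT libraries of Sst interneurons and 789.8, 612, 749 and 917.5 in Chd8het. L6 IT neurons followed with 451 CPM and L6 CT neurons with 369, whereas L4/5 IT neurons had 11.8. Cdh7 was at 419, 375, 379 and 377 CPM in WT and 345, 259, 381 and 301 in Chd8het Sst interneurons. Pvalb interneurons were next (276, 223, 237 and 221 CPM in WT, 243, 149, 241 and 249.3 in Chd8het), and the ranges met, since Chd8het male 2 in Sst interneurons lay below WT male 1 in Pvalb interneurons. Without either of these libraries the classes did not overlap. Cdh4 had 265 ± 40.3 CPM in Sst interneurons and 160 ± 65.4 CPM in L6 IT neurons, and these overlapped. In the single-indexed libraries alone, and in the dual-indexed ones alone, Cdh4 was among the members apart from the next type.

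**Figure D2:**
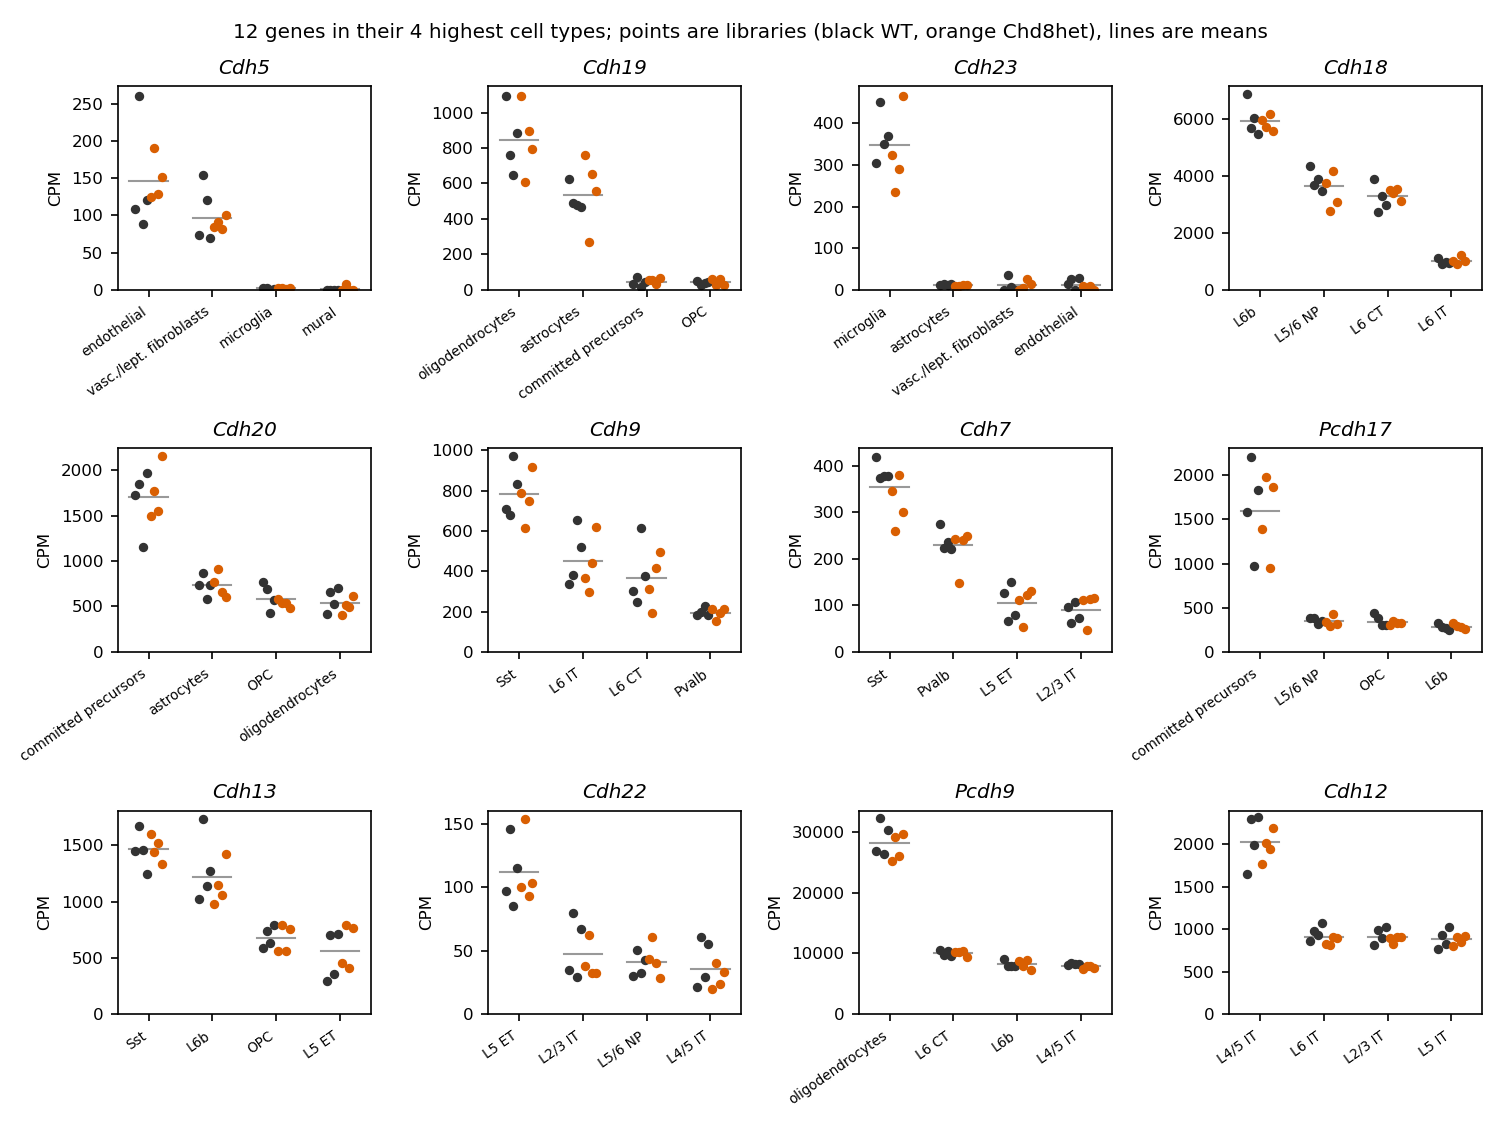
CPM of the 12 genes with the largest ratio of highest to median cell type among those with at least 100 CPM, each in its 4 highest types; points are the 8 libraries (black WT, orange Chd8het) and lines are means. WT and Chd8het points are mixed in each panel, and Cdh23 has the largest ratio of the highest to the next type (32.8), with 349 CPM in microglia and 10.6 in astrocytes.

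Vip interneurons had 1 member apart from the next type by mean, Pcdh8 (arcadlin, a protocadherin induced by activity), at 34.7 ± 11.0 CPM against 10.5 in Lamp5 interneurons. The lowest Vip library lay above all libraries of 18 types, but not of every other type. The values below are for Pcdh8. Pcdh8 values in Vip interneurons ran from 19.98 to 47.9 CPM with a median of 37.0. Pcdh10 was spread most evenly, with 236 ± 23.8 CPM in astrocytes, 212 ± 13.0 in OPC, 211 ± 41.9 in Vip interneurons and 203 ± 41.3 in L6 CT neurons, all overlapping.

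Astrocytes were the highest type of Cdh2 and Pcdh10 and second for Cdh19 and Cdh20. Cdh2 (N-cadherin), the main type I cadherin of the brain, was at 617 ± 70.6 CPM in astrocytes and overlapped L6b (539 ± 46.4) and L6 CT neurons (481 ± 26.3). It exceeded 80 CPM in all 20 types, with microglia lowest (81.1). In microglia this was 25.1% of its excitatory level, and in VLMC 30.6%. Both lay under the median of the excitatory markers there (71.4% and 48.6%), and carried-over RNA was not tested.

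Along the oligodendrocyte lineage, different members had their highest type at each stage. For OPC this was Pcdh15, whose protein forms hair-cell tip links together with that of Cdh23, at 3520 ± 262 CPM (3162 to 3907, median 3570), above the next named type, L5 IT (1971 ± 125). An unnamed cluster of 1432 nuclei had 3219 ± 223 CPM (2926 to 3562), which meets the OPC range, so Pcdh15 in OPC stood apart only from the named types. In committed precursors, Pcdh7, Cdh20 and Pcdh17 stood apart from all other types. Pcdh7 had 3055 ± 257 CPM there and 2098 in L5 IT neurons, and overlapped the next type under TMM scaling. Cdh20 was at 1724, 1846, 1159 and 1975 CPM in WT and 1498, 1768, 1549 and 2155 in Chd8het committed precursors, against a mean of 733 ± 118 in astrocytes. Pcdh17 was at 1584, 2209, 968 and 1836 CPM in WT and 1394, 1978, 952 and 1866 in Chd8het, against 349 ± 44.6 in L5/6 NP neurons. Every dual-indexed library was higher than every single-indexed one for both Cdh20 and Pcdh17 in these cells.

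Oligodendrocytes were the highest type of Pcdh9, Cdh19 and, by mean only, Pcdh11x. Pcdh9 was at 26796, 32229, 26270 and 30309 CPM in WT and 25215, 29124, 25957 and 29605 in Chd8het libraries, again with the dual-indexed libraries above the single-indexed ones. The next type, L6 CT, had 10073 CPM, and the lowest, microglia, 1589. Cdh19, a type II cadherin of glia and Schwann cells, was at 1094, 761, 647 and 883 CPM in WT and 1096, 607, 895 and 792 in Chd8het oligodendrocytes. Astrocytes had 626, 487, 477 and 466 CPM in WT and 760, 267, 652 and 559 in Chd8het, so the ranges overlapped, although oligodendrocytes were the higher type in 8 of 8 libraries. No other type exceeded 45.2 CPM. Pcdh11x, an X-linked gene, was uneven among libraries of oligodendrocytes: 1360, 1374 and 1198 CPM in WT males 1 and 2 and Chd8het male 1, and 345 to 719 CPM in the other 5 libraries. In OPC its 8 values lay between 761 and 867 CPM, and OPC were above oligodendrocytes in 5 of 8 libraries.

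Vascular cells and microglia were the highest types of further members. Cdh5 (VE-cadherin), the adherens junction cadherin of endothelium, was at 108, 262, 88.8 and 121 CPM in WT and 125, 191, 129 and 152 in Chd8het endothelial nuclei. VLMC followed with 73.7, 154, 121 and 69.4 CPM in WT and 84.6, 91.6, 81.3 and 100.7 in Chd8het, and the remaining 18 types stayed at or below 1.52 CPM. The 9 endothelial markers in VLMC stood at a median of 1.02% of their endothelial level (0.225% to 5.76%), and Cdh5 there had a mean of 97.1 CPM against 147 in endothelial cells. Cdh5 rested on 193 UMIs in endothelial nuclei and 203 in VLMC, over the 8 libraries together. Pcdh18 was at 67.4 ± 42.1 CPM in mural cells, from 19.7 to 156 with a median of 58.7, and at 9.61 in Sst interneurons; it no longer stood apart under TMM scaling or own marker scores. Pcdh19 had means of 76.4 CPM in both mural and endothelial cells, and Pcdh1 had 55.4 ± 23.6 in endothelial and 52.2 ± 28.4 in mural cells, pairs that overlapped.

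Cdh23 was found in microglia at 305, 451, 350 and 370 CPM in WT and 325, 234, 289 and 467 in Chd8het libraries, and at 10.6 CPM in the next type, astrocytes. It was the 1 member of 20 in microglia whose ratio to excitatory types exceeded that of the excitatory markers. On the opposite strand Cdh23 overlaps the protein-coding genes Vsir, which has immune functions, and Gm17455. Cdh24 overlaps Gm17606, Cdh12 overlaps Acot10 and Pcdh11x overlaps H2afb3. The strand setting of the authors' counting is not given in the sources used here, so reads of these genes and of the overlapping ones cannot be told apart.

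Neighbouring cell types were compared within each library, counting a member where its level differed at least 2-fold the same way in 8 of 8 libraries and reached 20 CPM in 1 of the types. L2/3 IT and L4/5 IT neurons differed least: 2 of 21 members (9.52%) against 4.29% of all genes with that level, namely Cdh13 (168 against 39.7 CPM, mean log2 ratio 2.00 ± 0.34, SD, n = 8) and Cdh9 (35.8 against 11.8 CPM, 1.52 ± 0.13). This count was lower with nuclei named by their own marker score and higher in each kind of library by index type alone. Within 1 index type fewer libraries have to pass, and no share of all genes is given for these settings. Cell types were defined from the data of these same nuclei, so these ratios are descriptions without a test.

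L5 ET and L5/6 NP neurons differed in 8 of 21 members (38.1%), against 7.51% of all genes. Higher in L5 ET neurons were Cdh7 (log2 ratio 3.46 ± 0.99), Cdh20 (3.38 ± 0.43), Cdh13 (2.61 ± 0.51), Cdh4 (1.93 ± 0.50) and Cdh22 (1.44 ± 0.23). Higher in L5/6 NP neurons were Cdh18 (-3.17 ± 0.25), Pcdh17 (-1.42 ± 0.21) and Cdh11 (-1.32 ± 0.12). With each nucleus named by its own marker score in place of its cluster, 3 members were counted. The share of all genes under that naming is not given, so a loss particular to the members cannot be read from this.

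L6 CT and L5 ET neurons, the 2 classes with targets below the cortex, differed in 11 of 22 members (50%) against 7.44% of all genes. Cdh9 was at 369 CPM in L6 CT and 23.1 in L5 ET neurons (log2 ratio 3.96 ± 0.29), Cdh18 at 3305 against 408 (3.03 ± 0.24) and Pcdh9 at 10073 against 3361 (1.58 ± 0.07). In the other direction were Cdh20, at 29.0 against 319 CPM (-3.37 ± 0.36), Cdh7, at 9.15 against 105 (-3.37 ± 0.17), and Cdh8, at 127 against 608 (-2.29 ± 0.32). Pcdh15 and Cdh2 were also higher in L6 CT neurons, and Cdh22, Cdh6 and Cdh13 in L5 ET neurons. L6 CT and L6b neurons differed in 3 of 19 (15.8%, all genes 4.17%): Cdh9 was higher in L6 CT neurons (3.26 ± 0.40), and Cdh10 (-2.85 ± 0.30) and Cdh13 (-2.47 ± 0.38) in L6b neurons. Without Chd8het male 2 this count was 5, with fewer libraries to pass and no share of all genes given.

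Pvalb and Sst interneurons, both derived from the medial ganglionic eminence, differed in 6 of 21 members (28.6%, all genes 5.92%). Cdh20 was higher in Pvalb interneurons (245 against 37.6 CPM, log2 ratio 2.69 ± 0.57), and Cdh4 (-2.76 ± 0.30), Cdh22 (-2.01 ± 0.47), Cdh9 (-1.99 ± 0.14), Cdh13 (-1.93 ± 0.41) and Pcdh11x (-1.81 ± 0.26) in Sst interneurons. Vip and Lamp5 interneurons, derived mainly from the caudal ganglionic eminence, differed in 7 of 21 (33.3%, all genes 5.36%). Cdh12 (2.21 ± 0.39), Cdh6 (2.20 ± 0.80), Pcdh19 (1.99 ± 0.48), Cdh8 (1.90 ± 0.44), Pcdh8 (1.64 ± 0.54) and Cdh7 (1.41 ± 0.35) were higher in Vip interneurons, and Cdh24 in Lamp5 interneurons (21.2 against 2.64 CPM, -2.73 ± 0.78).

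Astrocytes and OPC differed in 5 of 21 members (23.8%, all genes 17.2%), and OPC and oligodendrocytes in 7 of 21 (33.3%, all genes 22.5%). Both background shares are much higher here than between neurons. Cdh19 was higher in astrocytes than in OPC (537 against 41.3 CPM), and Pcdh15, Cdh13, Pcdh11x and Cdh6 were higher in OPC. From OPC to oligodendrocytes, Pcdh15 went from 3520 to 309 CPM (log2 ratio 3.52 ± 0.21), Cdh13 from 677 to 63.9 (3.42 ± 0.30) and Cdh4 from 95.9 to 11.2 (3.06 ± 0.47), with Cdh6 and Pcdh10 also higher in OPC. Cdh19 went from 41.3 to 847 CPM (-4.37 ± 0.32) and Pcdh9 from 6767 to 28188 (-2.06 ± 0.06).

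Over all 190 pairs of the 20 cell types, 1 to 15 members were counted, with a median of 8 (median share per pair 36.4% of members at that level, against 15.6% of all genes). The 28 pairs of excitatory types differed in 2 to 12 members (median 7.5; median share 36.5%, all genes 6.53%). The 6 pairs of interneuron classes differed in 4 to 8 (median 6.5; 30.9%, all genes 6.90%), and the 28 pairs of non-neuronal types in 1 to 13 (median 6; 27.4%, all genes 15.5%). The pairs share cell types and are not independent. The count of 1 was found for L2/3 IT neurons against endothelial cells (4.55%, all genes 15.7%) and mural cells (4.35%, all genes 8.09%). Endothelial cells against VLMC also gave 1 (4.55%, all genes 9.72%). Endothelial and mural cells had as few as 38 and 21 nuclei in a library. Excitatory markers there stood at a median of 74.7% and 85.1% of their excitatory level. The part of either in these low counts was not tested.

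**Figure D3:**
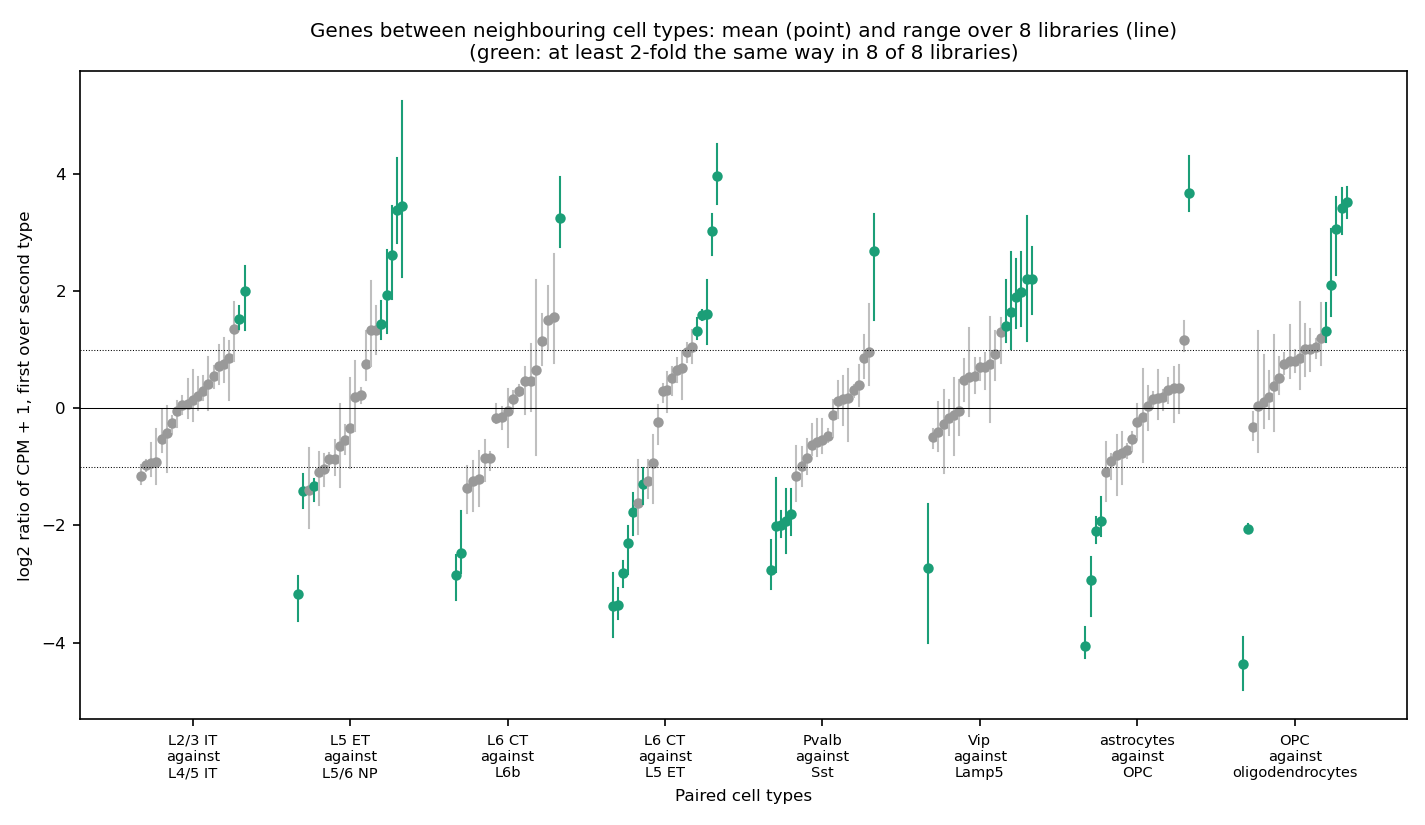
Log2 ratio of CPM + 1 between paired cell types for each gene with at least 20 CPM in 1 of them; points are means over 8 libraries and lines the range. Green genes differ at least 2-fold the same way in 8 of 8 libraries, from 2 genes between L2/3 IT and L4/5 IT to 11 between L6 CT and L5 ET neurons.

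Several of these genes lie in groups on the genome (GRCm38, GENCODE M21). Chromosome 15 holds Cdh6, Cdh9, Cdh10, Cdh12 and Cdh18, from 13028701 (the start of Cdh6) to 23474418 (the end of Cdh18), and chromosome 1 holds Cdh20, Cdh7 and Cdh19 between 104768529 and 110977584. In that order the highest types were L4/5 IT, Sst, L5 IT, L4/5 IT and L6b on chromosome 15, and committed precursors, Sst and oligodendrocytes on chromosome 1. Other neighbours did share one: Cdh3 (106510891 to 106557297) and Cdh1 (106603351 to 106670246), among the 8 members on chromosome 8, were both highest in VLMC, and Pcdh1 and Pcdh12 in endothelial cells, although Cdh1, Cdh3 and Pcdh12 stayed under 20 CPM. Most genes are long, up to 1550 kb for Pcdh15, 1140 kb for Cdh12 and 1041 kb for Cdh13, and nuclear RNA holds intron sequence. Levels of different genes were compared per kilobase of gene. Whether these 3' UMI counts scale with gene length was not tested, and intron use in the counting is not given. On that scale, over all kept nuclei, Pcdh9 had 6.85 ± 0.25 CPM per kb, Pcdh7 3.26 ± 0.22, Cdh10 2.79 ± 0.25, Pcdh10 2.56 ± 0.34 and Cdh11 2.28 ± 0.28 (SD, n = 8). The order depends on this scale. Undivided, Pcdh15 had 1180 CPM and Cdh18 808, against 147 for Pcdh10.

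The genotypes were compared in each cell type with edgeR's quasi-likelihood test (sex and genotype in the model, two-sided, Benjamini-Hochberg adjusted over all genes of a cell type). Nothing was called among the members: 0 of 34 in all kept nuclei and 0 of 431 tests over the 20 cell types, beside 0% of all 203359 tests (0 genes) and 0% of the 21225 genes in all kept nuclei. In all kept nuclei no member had an unadjusted p under 0.05 (1.39% of all genes did), the median log2 change was -0.01, and 31 of 34 members had a log2 difference under 0.25 in either direction. With a median standard error of 0.153, a change of the size of that limit would be within 2 standard errors for many members, so small changes were not detectable.

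At an unadjusted p under 0.05 there were 29 of 431 tests of members (6.73%, 16 of them higher in Chd8het), against 2.42% of all tests. For genes with at least 20 CPM in the cell type the shares were 27 of 376 (7.18%) and 2.41%. With a block for each pair of the same sex and replicate number, 0 members were again called, beside 62 genes over the cell types (0.0305% of tests), and the unadjusted shares were 16.7% of member tests and 6.16% of all (for genes with at least 20 CPM, 18.6% and 6.81%). In all kept nuclei 0 of 34 members had an unadjusted p under 0.05 with the block, against 6.38% of genes. With index type added as a term in place of the block, 0 of 431 member tests were called, beside 41 of all 203359 tests. The unadjusted shares were then 15.3% of member tests and 5.67% of all. The genes called with the block were 0.161% of those tested in L5 ET neurons, 0.144% in L6b, 0.0813% in Sst, 0.0757% in Vip, 0.0226% in L6 IT, 0.0215% in L6 CT, 0.0211% in OPC, 0.0206% in L5/6 NP, 0.0149% in L5 IT and 0.00608% in L2/3 IT nuclei, and 0% in the other cell types. The tests of 1 gene in many cell types share their libraries and so are not independent.

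**Figure D4:**
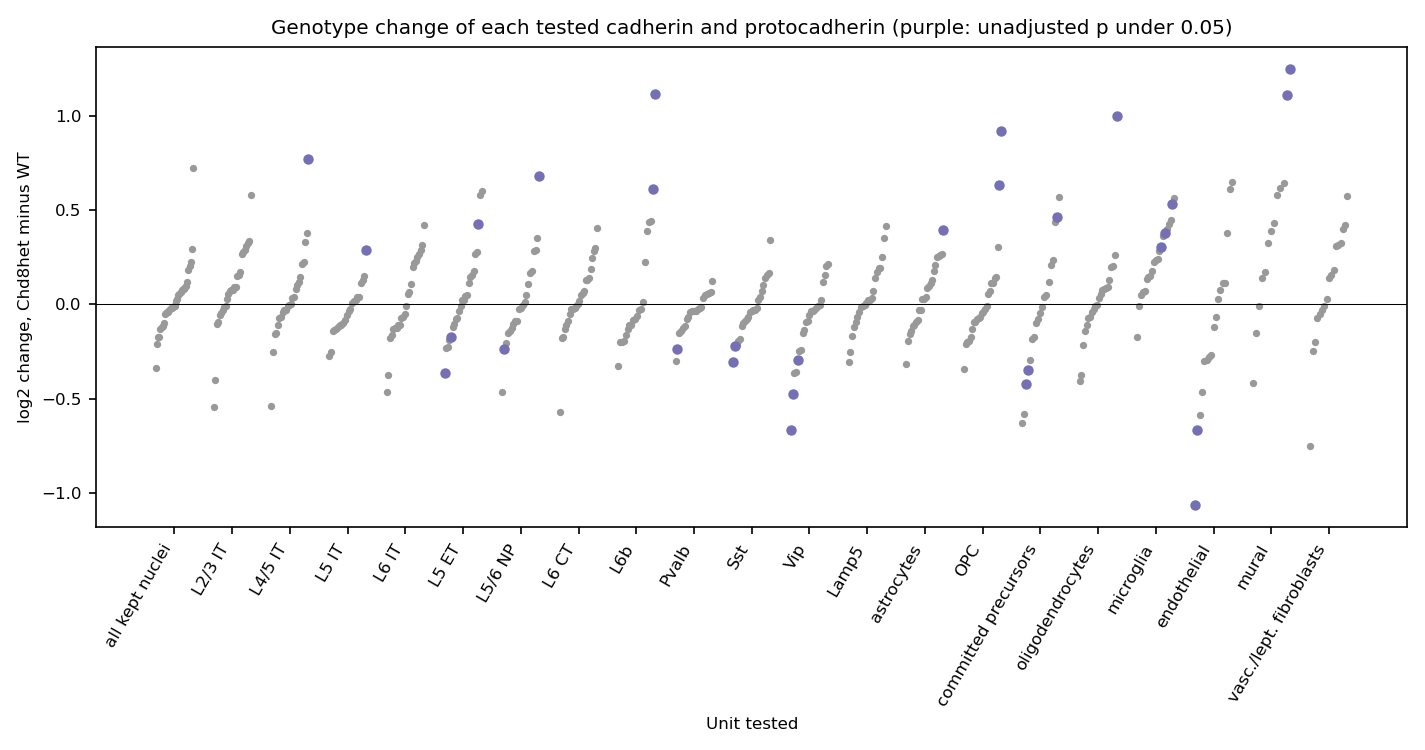
Log2 change, Chd8het minus WT, of each gene tested in all kept nuclei and in the 20 cell types; purple points have an unadjusted p under 0.05. In all kept nuclei 31 of the 34 genes lie within 0.25 of 0 and none is purple, and 29 of the 431 points over cell types are purple.

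In all kept nuclei the 3 members with the smallest p were Cdh15, Cdh12 and Pcdh9. Pcdh9 was at 6318, 6494, 6097 and 5996 CPM in WT and 5892, 5708, 5968 and 5647 in Chd8het libraries (CPM after TMM here and below), and each Chd8het value was below each WT value (log2 -0.10, SE 0.05, edgeR p 0.0929, adjusted p 1.00). Cdh12 was at 839 ± 57.6 and 746 ± 86.1 CPM (SD, n = 4 and 4; log2 -0.17, SE 0.09, adjusted p 1.00), with 1 of 4 pairs higher in Chd8het. Cdh15 was near 0, with 0.168 ± 0.015 against 0.280 ± 0.127 CPM. Pcdh9 was also lower in 4 of 4 pairs within L5 ET neurons (3591 ± 186 against 3178 ± 134 CPM, no overlap, log2 -0.18, SE 0.08, edgeR p 0.0411, adjusted p 1.00) and within L5/6 NP neurons (6817 ± 430 against 5787 ± 544 CPM, overlapping, -0.24, SE 0.09, adjusted p 0.999).

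By cell type, the 6 combinations with the smallest p included 3 in glia of the oligodendrocyte lineage. In OPC, Cdh8 was at 40.8, 54.6, 57.2 and 49.96 CPM in WT and 75.2, 93.9, 76.0 and 69.5 in Chd8het libraries, without overlap and higher in 4 of 4 pairs (log2 0.63, SE 0.17, edgeR p 0.00234, adjusted p 1.00). Cdh9 in OPC was at 11.9, 17.7, 19.1 and 18.3 against 20.4, 31.7, 28.5 and 46.7 CPM, again without overlap (0.92, SE 0.27, edgeR p 0.00371, adjusted p 1.00). In oligodendrocytes Cdh7 was at 9.48, 4.83, 5.07 and 5.85 against 14.4, 10.2, 10.3 and 15.5 CPM, without overlap (1.00, SE 0.31, edgeR p 0.00727, adjusted p 1.00). The levels of Cdh8 and Cdh9 in OPC are low for these genes, at 19.4% and 18.3% of their excitatory level. Both lay under the highest of the excitatory markers there (109%). For Cdh9 and Cdh7 the highest type was Sst interneurons. Inhibitory markers in OPC summed to 5987 to 6514 CPM in WT and 5603 to 5995 in Chd8het libraries (6 of 8 higher on average in Chd8het). Single markers there ran from 2.49% to 136% of their interneuron level, with a median of 17.3%. A few markers can therefore carry the sum, which is not an even measure of interneuron RNA. In oligodendrocytes these inhibitory markers summed to 3942 to 4909 and 3981 to 4873 CPM (5 of 8 higher), with single markers at 1.87% to 57.5% (median 4.41%). The summed excitatory markers in OPC ranged from 450 to 709 CPM in WT and from 521 to 892 in Chd8het libraries, with 8 of 8 markers higher on average in Chd8het and none at 0. In oligodendrocytes they ranged from 411 to 550 and from 446 to 754 CPM, with 6 of 8 higher. Astrocyte markers in OPC summed to 836 to 1132.5 CPM in WT and 1095 to 1318 in Chd8het libraries (8 of 10 higher). In oligodendrocytes the astrocyte markers summed to 308 to 532 and 445 to 696 CPM (8 of 10 higher). The part of all these markers in these differences was not tested.

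In mural cells Pcdh15 was at 819, 569, 366 and 403 CPM in WT and 1653, 724, 1403 and 1120 in Chd8het libraries, higher in 4 of 4 pairs but overlapping (log2 1.25, SE 0.33, edgeR p 0.00184, adjusted p 0.938, adjusted p 0.05996 with the pair block). Mural cells had as few as 21 nuclei in a library, Pcdh15 there stood at 69.0% of its excitatory level, and the summed excitatory markers ranged from 1012 to 2044 CPM in WT and from 1090.0 to 1917 in Chd8het, with 7 of 8 higher in Chd8het. Astrocyte markers there summed to 667 to 1213 CPM in WT and 1147 to 1859 in Chd8het (9 of 10 higher), and the mural cells' own markers to 3326 to 5327 and 2843 to 3778 (2 of 9 higher), none at 0. The part of these markers was not tested. In L6b neurons Cdh8 was at 70.1, 51.0, 107 and 78.4 CPM in WT and 96.3, 72.2, 145 and 154 in Chd8het, higher in 4 of 4 pairs and overlapping (0.61, SE 0.17, edgeR p 0.00296, adjusted p 1.00).

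The 1 decrease among the 6 was Cdh6 in Vip interneurons, at 158, 189, 108 and 193 CPM in WT and 96.6, 92.2, 115 and 106 in Chd8het libraries (log2 -0.67, SE 0.17, edgeR p 0.00191, adjusted p 1.00). WT female 1 lay within the Chd8het range, and 1 of 4 pairs was higher in Chd8het. In the same interneurons Cdh8 (363 ± 36.8 against 298 ± 42.9 CPM) and Cdh9 (212 ± 51.4 against 153 ± 52.7 CPM) also had unadjusted p-values under 0.05 with lower means in Chd8het. The summed excitatory markers in Vip nuclei ranged from 559.9 to 772 CPM in WT and from 670.1 to 822 in Chd8het libraries, with 8 of 8 higher in Chd8het and none at 0, and their part was not tested. None of these differences passed the adjusted threshold in the model with sex or in the model with pairs.

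**Figure D5:**
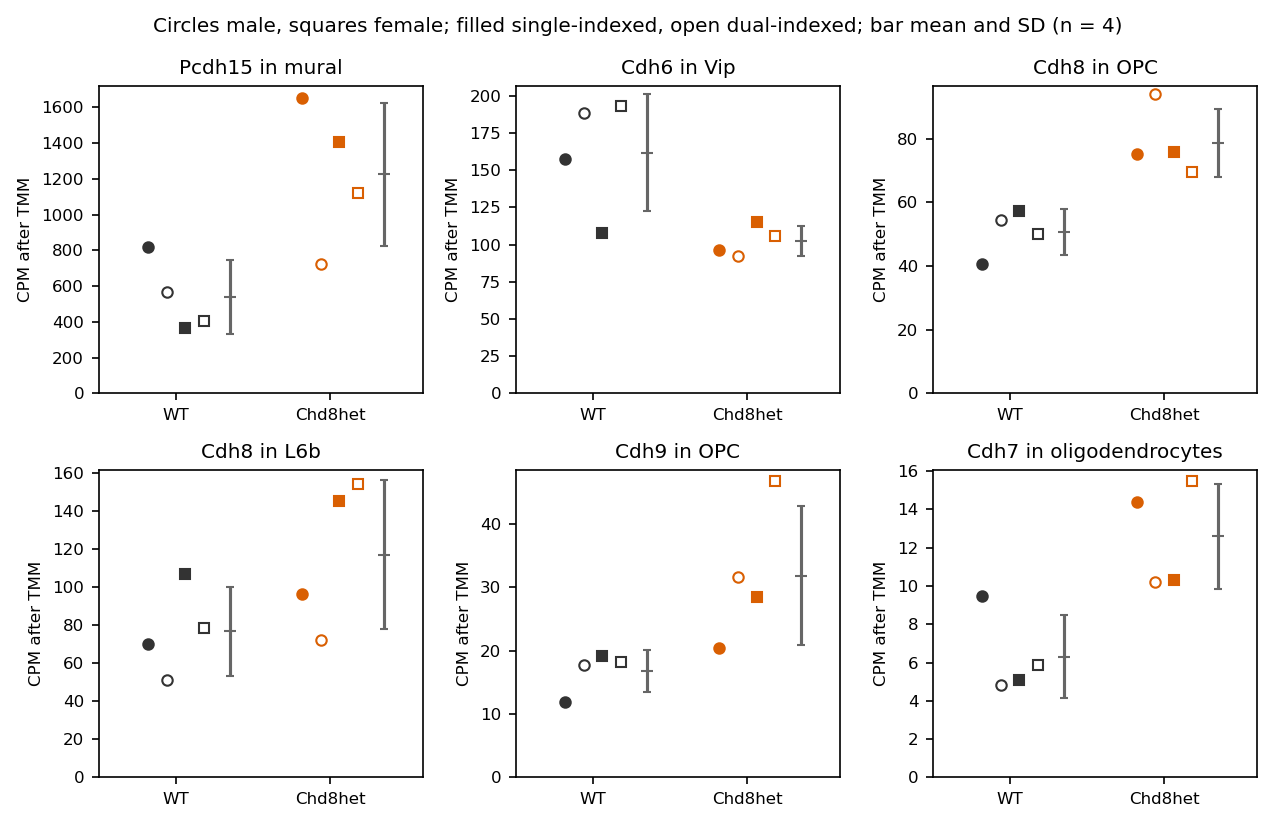
The 6 combinations of gene and cell type with the smallest unadjusted p; points are libraries (CPM after TMM; circles male, squares female, filled single-indexed, open dual-indexed) and bars mean and SD of 4. WT and Chd8het points do not overlap for Cdh8 in OPC, Cdh9 in OPC and Cdh7 in oligodendrocytes, and overlap in the other 3 panels.

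Of the members, 28 were tested in at least 1 cell type and 11 in all 20. Of those named below, Cdh8 did not keep 1 direction over the cell types listed. Directions over all cell types tested are not given per member. Cdh8 was higher in Chd8het OPC, L6b neurons and astrocytes (log2 0.63, 0.61 and 0.39) and lower in Vip interneurons (-0.30), all at an unadjusted p under 0.05. In astrocytes Cdh8 stood at 19.6% of its excitatory level, and the summed excitatory markers ranged from 530 to 733 CPM in WT and from 604 to 919.9 in Chd8het libraries, with 7 of 8 higher in Chd8het and none at 0. Their part was not tested. Cdh13 was higher in L5/6 NP neurons (0.68, edgeR adjusted p 0.999, 0.0705 with the pair block and 0.0364 without a count filter), mural cells (1.11) and committed precursors (0.46). Pcdh10 was lower in L5 ET neurons (-0.36), committed precursors (-0.35) and Pvalb interneurons (-0.24), and Pcdh11x in endothelial cells (-1.07), committed precursors (-0.42) and Sst interneurons (-0.22). In endothelial nuclei the 9 markers of oligodendrocytes, the highest type of Pcdh11x by mean, were also summed. They gave 312 to 1299 CPM in WT and 437 to 1018 in Chd8het libraries, with 2 of 9 higher in Chd8het and none at 0. In the same nuclei 8 of 8 excitatory markers were higher in Chd8het (723 to 1629 and 1099 to 1414 CPM). The part of both marker sets was not tested. In each of these genotype differences the adjusted p was above the threshold with the count filter. With the count filter, the genotype difference was not called to depend on sex for any member (0 of 431 tests, edgeR interaction term). Of these tests, 10 had an unadjusted p under 0.05 (2.32% against 1.41% of all tests), and 1 gene of 203359 tests was called. Without a count filter 1 of 676 member tests was called (Cdh13 in endothelial cells, -3.28, adjusted p 0.0459), beside 77 of all 452719.

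The partners of cadherins were followed as a list of 32 genes: catenins and other proteins of the adhesion complex, the protease Adam10, the WAVE complex genes bound by protocadherins, and other families of the cadherin superfamily. Ctnna2, the neuronal alpha-catenin, was highest in L5 ET neurons (3796 ± 209 CPM), Ctnnd2 in astrocytes (3765 ± 349), Ctnnb1, encoding beta-catenin, in endothelial cells (240 ± 54.4), Vcl, encoding vinculin, in astrocytes (457 ± 42.9) and Pkp4 in committed precursors (875 ± 134). Of these, Pkp4 overlapped the next type, oligodendrocytes (539 CPM), and the others did not overlap theirs. Endothelial cells were also the highest type of Ctnna1, Ctnnd1 and Jup, all overlapping VLMC. Of the large cadherins, Fat3 was highest in L5 IT neurons (1187 ± 78.1 CPM), overlapping L5 ET neurons (1105), and Fat4 stood apart in VLMC (149.8 ± 29.8). Pcdha4 and Pcdhgc5, of the clustered protocadherins, were counted at 0 in all cell types. The annotation behind the authors' counts is not given in the sources used here, so these 0 counts are not read as absence of expression.

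None of the partners was called by genotype in any cell type (0 of 482 tests; 15 had an unadjusted p under 0.05, 3.11% against 2.42% of all tests, 6 of them higher in Chd8het). With the pair block 0 were called and 51 had an unadjusted p under 0.05 (10.6%, all tests 6.16%). The smallest p-values were for Ctnna3, the alpha-T-catenin gene, and Dchs1. Ctnna3 in committed precursors was at 818, 840.1, 918 and 1005 CPM in WT and 739, 591, 541 and 635 in Chd8het libraries, without overlap (log2 -0.51, SE 0.16, edgeR p 0.00536, adjusted p 1.00), and in L5 ET neurons at 1154 ± 145 against 899 ± 72.1 CPM (-0.36, SE 0.11, adjusted p 1.00; 0.0742 with the pair block). Dchs1 in Pvalb interneurons was at 29.1 ± 2.00 against 21.7 ± 2.09 CPM, without overlap (-0.43, SE 0.14, edgeR p 0.0106, adjusted p 1.00). All 3 were lower in 4 of 4 pairs.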

How the data were processed

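Nuclei of the cortex of 8 mice at P25 were profiled with the 10x 3' v3 kit. The deposited matrices hold UMI counts per gene and barcode; per the submitters' processing notes, STAR 2.7.9a, STARsolo, Cell Ranger and the mm10 build were named, and annotation, strand and intron use being not given in the sources used here. Deposited counts carry no normalization by the authors, as the whole numbers of the deposited files show. The members, the partner list and the comparisons were chosen with earlier results of these data known.

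Nuclei with at least 500 genes and at most 5% mitochondrial UMIs were kept, Scrublet doublets were removed per library (4278 of 82168), and 2973 variable genes without cadherin superfamily genes were clustered (40 principal components, 20 neighbours, Leiden resolution 1.5, scanpy 1.11.5, leidenalg 0.10.2, Python 3.11.15). A cluster was named where at least 4 listed markers were at least 2-fold above other clusters of its kind. It stayed unnamed with over 30% doublets, under 100 nuclei, leading genes of another class, 3 or more mitochondrial leading genes, or few UMIs without a leading marker. The minimum of 4, the mitochondrial rule and the leaving out of predicted genes were set after the clusters were seen.

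Counts were summed per library and cell type. Levels are CPM of total UMIs and are described without a test between cell types. Genotype was tested with edgeR 4.0.16 (R 4.3.3; quasi-likelihood, filterByExpr with a minimum count of 10, TMM, sex and genotype, Benjamini-Hochberg over all genes of a cell type, called at an adjusted p under 0.05), and the steps were tested on simulated data. Log2 changes are Chd8het minus WT. The models of sex and index type were chosen after the levels were seen. Alternatives were a replicate block, index type as a term, no sex term, DESeq2 1.42.0, other filters, other naming of nuclei, and leaving out each library.

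Named genes follow a rule: for each cell type the members highest there (at least 20 CPM, up to 3), the 12 with the largest ratio to the median type in every library, the 3 smallest p-values in all kept nuclei, the 6 smallest over cell types, any call, and 3 partners. Others named were chosen after their values were seen. The labels say that pairs were matched for litter and sex, but not which libraries form a pair; same sex and replicate number was used. Deviations from group means correlated over 0.1 in 82 of 84 pairs and cell types (0.02 to 0.78), and in all kept nuclei from 0.45 to 0.78. The replicate number is also the index type, so litter and index type cannot be told apart. Each library is 1 animal. Intervals from counts cover counting error only.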

Additional observations from a re-analysis of the deposited data

Results flagged for a closer look

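In 2 of the 42 groups of 4 libraries checked, the highest library lay far from the other 3. Chance flags about 1 in 20 groups. Cdh7 in WT Sst interneurons was at 418.989 CPM in WT male 1, with the others at 374.5, 377.4 and 378.7. Cdh22 in Chd8het L5 ET neurons was at 153.627 CPM in Chd8het male 2, with the others at 92.91, 100.4 and 103.2.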

How the results depend on the processing

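The count of members called by genotype over cell types, 0 under the model with sex, was 1 without a count filter (Cdh13 in L5/6 NP neurons, log2 0.68, adjusted p 0.0364; 1 of 676 member tests and 142 of all 452719). The sex by genotype count, 0, was also 1 without a count filter (Cdh13 in endothelial cells, -3.28, adjusted p 0.0459; 77 of all 452719 tests). The cause was not tested. With the replicate block, 0 members were called over cell types and 0 in all kept nuclei, and the median log2 change was -0.01. The block changed no call of a member. DESeq2's Wald test called 0 members, beside 8 of all 203359 tests, with 16 of 431 member tests at an unadjusted p under 0.05 (3.71%, all genes 1.06%). The median log2 change in all kept nuclei (-0.01) was 0.0213 under the stricter nucleus filter and 0.0152 with doublets kept, and ran from -0.0257 to 0.0381 on leaving out each library. Between L2/3 IT and L4/5 IT neurons 2 members were counted, but 1 with nuclei named by their own marker score, 1 with clusters of 3 raised markers, 1 at 50 CPM, and 4 in each kind of library by index type (4 with single, 4 with dual indexes). Between L5 ET and L5/6 NP neurons the own marker score gave 3 in place of 8. Between L6 CT and L6b neurons 3 members became 6 with single and 5 with dual indexes alone, with a range of 3 to 5 on leaving out each library (5 without Chd8het male 2). The 12 members apart in their highest type became 10 under TMM (without Pcdh18 and Pcdh7), 9 by own marker score (8 of the 12, without Cdh18, Cdh22, Cdh24 and Pcdh18, and with Cdh1 gained), 10 at 50 CPM (without Cdh24 and Pcdh8) and 12 to 15 on leaving out each library (15 without Chd8het male 2); under the stricter nucleus filter mural and endothelial cells had under 20 nuclei in a library, and among the 18 types left 11 of the 12 were shared, Pcdh18 being lost and Cdh5 gained with those types. The share of all genes apart was 22.1% under TMM (members 10 of 27), 20.3% by own marker score (9 of 28) and 27.7% at 50 CPM (10 of 25). It was 23.3% under the stricter nucleus filter (12 of 26) and 22.0% to 23.2% on leaving out each library. For the paired types under these settings no share of all genes is given. With fewer libraries the ranges are narrower by construction. Counts of members apart, or differing between paired types, could therefore hardly fall on leaving out a library or within 1 index type. Those settings do not check these counts. Depth limits mural and vascular cells most, with as few as 21 nuclei in a library.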

Other observations

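Sex differences were read from the model with sex, index type and genotype, chosen after the levels were seen. Over the 20 cell types 4 of 431 tests of members (0.928%) were called, all higher in females, against 0.142% of all tests; in all kept nuclei 0 of 34 members and 0.0612% of genes were called. Cdh9 in L5 ET neurons was at 30.5 ± 9.01 CPM in females and 15.8 ± 3.66 in males (SD, n = 4 and 4; log2 0.93, SE 0.19, edgeR adjusted p 0.0462). Cdh13 in L5/6 NP neurons was at 125 ± 62.6 against 72.3 ± 34.4 CPM (0.78, SE 0.13, adjusted p 0.0117). Cdh8 in L6b neurons was at 121 ± 35.1 against 72.4 ± 18.6 (0.75, SE 0.15, adjusted p 0.0241), and Pcdh15 there at 547 ± 89.8 against 398 ± 8.25 (0.45, SE 0.10, adjusted p 0.0466). Cdh9 was higher in females in 17 of 17 cell types tested, by 0.15 to 1.04 on the log2 scale (median 0.70), with 13 at an unadjusted p under 0.05 and 1 called. At that p were 20.9% of all member tests and 8.70% of all tests. These tests share their libraries.

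In microglia 19 of 21 members had a positive log2 change in Chd8het (median 0.24), where 51.6% of all genes did. The summed excitatory markers there ranged from 887 to 1331 CPM in WT and from 981 to 1585 in Chd8het libraries, with 6 of 8 markers higher in Chd8het. Astrocyte markers summed to 761 to 1299 and 847 to 1583 CPM (9 of 10 higher), and the microglia's own markers to 8840 to 11378 and 7490 to 9840 CPM (1 of 9 higher), none at 0. The part of these markers was not tested.

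Of the clusters left unnamed, 4 of 1100 to 2859 nuclei were measured, and 3 of these held Cdh8 above its highest named type, L5 ET (608 CPM). A cluster of 1432 nuclei led by Thsd7a had 926 ± 101 CPM of Cdh8, 3219 ± 223 of Pcdh15 and 222 of Cdh6. A cluster of 2859 nuclei had 730 ± 44.8 CPM of Cdh8, and one of 1396 nuclei had 671 ± 79.7.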
